A study of Mus musculus with 18 samples.

Results

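Motile cilia are the beating hairs that sweep mucus along the airways, and in mouse lung they are carried by the ciliated cells of the bronchial and bronchiolar lining. The 52 genes described here encode the parts of the axoneme, the microtubule scaffold of a motile cilium, and the factors that build it. They form a list of gene names chosen with earlier results of these data known, so counts over it are a description and no independent test. Each gene was read from the probe set with the highest mean among those that name it alone. On the array, 48 of the 52 were measured, among 18193 genes tested. Dnah3, Dnah10, Cfap44 and Sntn had no probe set of their own in the annotation used.

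The expression arrays came from lung of B6C3F1/N mice, a cross of laboratory strains often chosen for cancer bioassays, which were 5 to 6 weeks old at the start. Treated tumors are lung tumors of mice that inhaled antimony trioxide, in a study with aerosol levels of 3, 10 or 30 mg per cubic metre beside an unexposed level of 0, for 6 hours plus 12 minutes a day on 5 days a week for up to 105 weeks. Spontaneous tumors are lung tumors that arose without that exposure, and control lung is lung of vehicle control animals. Tumors were dissected away from the surrounding lung before freezing. The labels name no animal, sex or exposure level for a sample, and no separate animals for the replicates, so each p-value reflects only how far these samples spread, which may be technical.

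Of 18 arrays, control 5, spontaneous tumor 5 and spontaneous tumor 6 were left out. Their median correlation with the other arrays was 0.301 to 0.476, against 0.920 to 0.973 for the 15 arrays used. Mean levels of the 48 genes on them were 7.07 and 7.02 in spontaneous tumors 5 and 6, and 7.37 in control 5. That left 6 treated tumors, 4 spontaneous tumors and 5 control lungs. Values are log2 levels as deposited, and 1 log2 unit is a 2-fold difference. A log2 fold change ± standard error comes from limma fitted over all genes, and a gene is said to have fallen or risen where its adjusted p was under 0.05 over all 18193 genes. The values carry no detection calls, so it is not known which tumor levels lie at background. The bacterial spike bioB read 10.2 to 10.6 in treated tumors and 10.2 to 10.5 in spontaneous tumors, against 10.6 to 11.2 in control lung, and its part in the results was not tested.

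Foxj1 is the master transcription factor of motile ciliogenesis, and the RFX factors bind X-box elements in the promoters of many cilium genes. The axoneme's doublet microtubules carry outer and inner dynein arms, the motors that make the doublets slide. Nexin links hold the doublets together, and radial spokes connect them with the central pair apparatus, which coordinates the beat. Inherited loss of many of these proteins causes primary ciliary dyskinesia in humans.

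Promoters of these genes were searched for letters that RFX factors are known to bind. Whether such letters have a part in the results was not tested. RefSeq windows of 300 bases (GRCm38.p6), with 250 before and 50 after the gene's start, were held for 41 of the 48 genes. The RFX half-site GTTGCC, on either strand, was in 20 of the 41 windows (48.8%), against 1851 of 14452 windows of all genes tested (12.8%). It was also in 19 of 40 windows of genes for intraflagellar transport and the primary cilium (47.5%). A full X-box was counted in a strict spelling only, GTTNCC followed 5′ to 3′ by GGNAAC after 0 to 3 bases. In that spelling it was in 1 of the 41 windows (2.44%), against 0.900% of all windows. It lies in the window of Fam183b and begins 16 bases before the start, outside the stretch printed below. The opposite order, GGNAAC before GTTNCC, was not counted. Nor were looser spellings, such as GTTGCC with agtaac shortly after it in the Spag16 stretch below, so X-boxes may be undercounted. The forkhead letters TGTTTAC were in 3 of 41 (7.32%) against 2.82% of all, and a GC box, GGGGCGG, in 8 of 41 (19.5%) against 36.2% of all. A full X-box also counts as a half-site where its open base spells GTTGCC on either strand. These motifs were chosen after counts of several were seen, and a match is a description of letters, not a binding site.

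Stretches of 60 bases around a half-site are shown for 6 genes. A half-site was eligible if it lay at least 30 bases before the start and at least 30 bases inside the far end of the window. For each role that has one, the gene is that with the lowest fold change among genes that fell in treated tumors and have an eligible half-site. Ccdc113, Hydin, Enkur and Tekt1 fell more in treated tumors than the genes shown for their roles, but had half-sites only outside that range. The stretches show how the same letters recur in genes of different parts of the cilium. The strand is that of the gene, the direction 5′ to 3′, and the capitals mark GTTGCC or its reverse complement.
Rfx2 (chr17:56831092-56831151, minus strand): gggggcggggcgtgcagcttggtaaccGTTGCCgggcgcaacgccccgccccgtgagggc
Ccdc153 (chr9:44240498-44240557, plus strand): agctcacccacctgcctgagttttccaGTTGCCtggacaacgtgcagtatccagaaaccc
Lrrc23 (chr6:124779734-124779793, minus strand): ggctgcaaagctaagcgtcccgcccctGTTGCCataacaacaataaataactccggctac
Spag16 (chr1:69826840-69826899, plus strand): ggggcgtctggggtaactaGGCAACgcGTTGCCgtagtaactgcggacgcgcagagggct
Tekt2 (chr4:126325752-126325811, minus strand): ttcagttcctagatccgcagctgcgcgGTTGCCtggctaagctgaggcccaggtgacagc
Fam183b (chr11:58801995-58802054, minus strand): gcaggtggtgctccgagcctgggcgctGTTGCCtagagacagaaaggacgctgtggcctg
In Rfx2, Ccdc153, Lrrc23, Spag16, Tekt2 and Fam183b the right-hand half-site began 116, 152, 39, 103, 96 and 67 bases before the start. The Spag16 stretch holds 2 half-sites, 1 on each strand.

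Motile cilia genes were far lower in both kinds of tumor than in control lung. In treated tumors 45 of 48 genes fell and 0 rose, where 15% of all genes tested fell and 23.8% rose. In spontaneous tumors 44 of 48 fell and 0 rose, where 12.9% of all genes fell and 20.1% rose. Over all 18 arrays 37 of 48 fell in each comparison, where 4.44% of all genes fell in treated and 3.19% in spontaneous tumors. Of the 48, 44 fell in both, where 11.4% of all genes did so. The median log2 fold change of the 48 was -3.20 in treated and -3.15 in spontaneous tumors, against 0.09 and 0.12 over all genes. The 2 comparisons share the control arrays. In bulk tissue, fewer ciliated cells and less of these RNAs per cell cannot be told apart.

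The size of the fall was wide among the genes. In each tumor group 26 genes fell at least 8-fold, which 1.19% of all genes did in treated and 1.06% in spontaneous tumors. Levels of tumor and control arrays did not overlap for 43 of 48 genes in treated tumors (10.1% of all genes were lower without overlap) and for 42 in spontaneous tumors (11.4%). Adjusted p-values of the genes that fell reached 0.0358 in treated and 0.0345 in spontaneous tumors (limma). Rfx3, Dnaaf1 and Cfap52 did not pass the test in either tumor group.

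**Figure D1:**
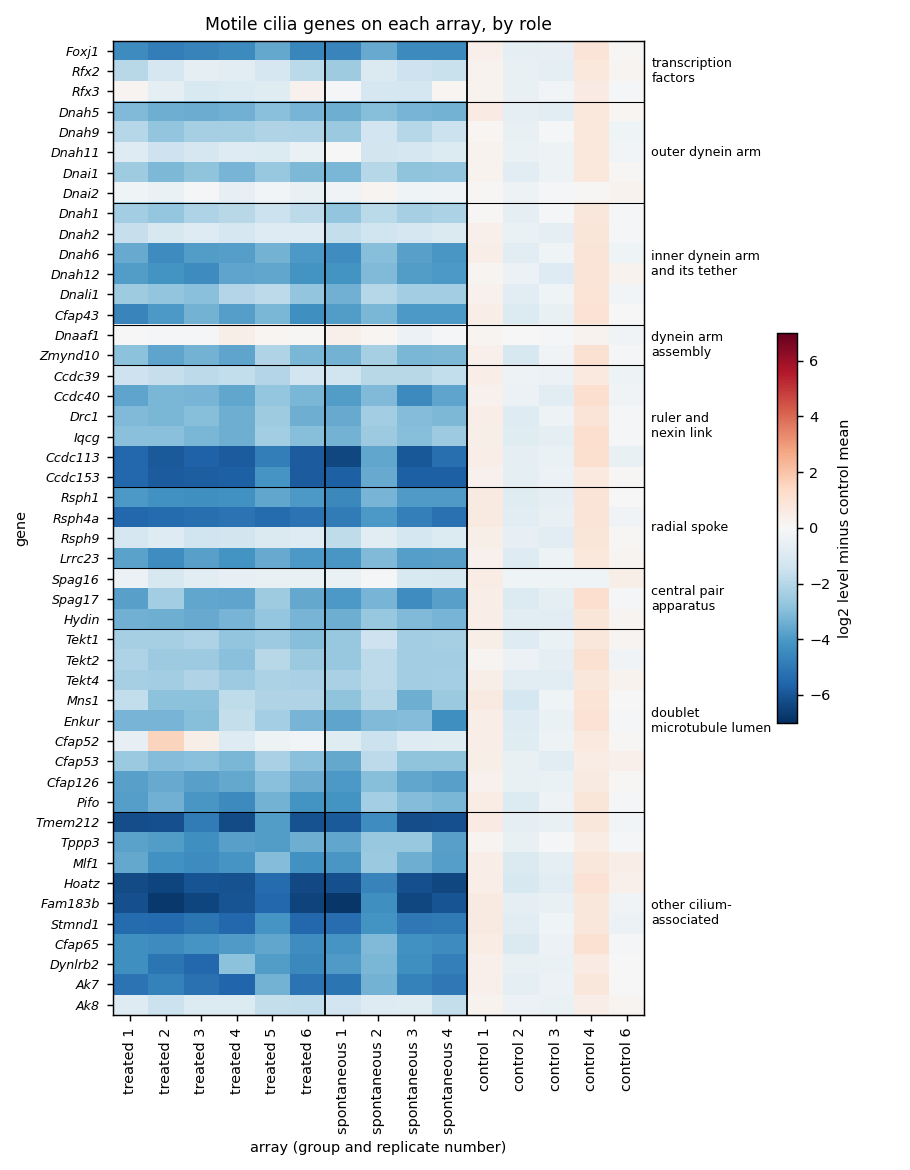
Log2 level of each of the 48 measured genes on the 15 arrays, shown as the difference from the gene's mean in control lung (colour, log2 units), with genes in rows by role and arrays in columns. Treated and spontaneous tumor columns are blue for most genes, while Rfx3, Dnaaf1, Dnai2 and Cfap52 stay pale or mixed, and control 4 is the reddest control column.

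Foxj1 read 4.94, 5.31 and 6.20 (lowest, median and highest) in treated tumors. It read 5.20, 6.26, 5.32 and 5.33 in spontaneous tumors 1 to 4, and 10.16, 9.09, 9.20, 10.69 and 9.86 in controls 1, 2, 3, 4 and 6. All 10 tumors lay far below the lowest control, and treated tumor 5 and spontaneous tumor 2 were the highest of their groups. The log2 fold change was -4.42 ± 0.30 in treated tumors (limma adjusted p = 5.9e-08), a 21.3-fold fall, and -4.27 ± 0.33 in spontaneous tumors (adjusted p = 3.9e-07), a 19.3-fold fall. Foxj1 lay on a single probe set.

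Rfx2, an RFX factor that acts with Foxj1 on cilium genes, fell less. It read 6.58, 7.32 and 7.81 (lowest, median and highest) in treated tumors, and 6.05, 7.51, 7.05 and 6.94 in spontaneous tumors, against 8.77, 8.01, 7.83, 9.27 and 8.68 in controls. The highest treated tumor was just under the lowest control. The fall was -1.28 ± 0.32 in treated (adjusted p = 0.0048) and -1.63 ± 0.35 in spontaneous tumors (adjusted p = 0.0025, limma). Its 3 other probe sets were lower in level and were not called in either comparison, with log2 fold changes of -0.23 to 0.17.

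Rfx3, which also serves primary cilia, had overlapping levels in all 3 groups. It ran from 9.23 to 10.60 in treated tumors, from 9.11 to 10.44 in spontaneous tumors and from 9.79 to 10.91 in control lung. Its log2 fold changes were -0.50 ± 0.32 in treated tumors and -0.59 ± 0.35 in spontaneous tumors (limma adjusted p = 0.23 and 0.22). The transcription factors thus differed among themselves, with Foxj1 moving most.

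**Figure D2:**
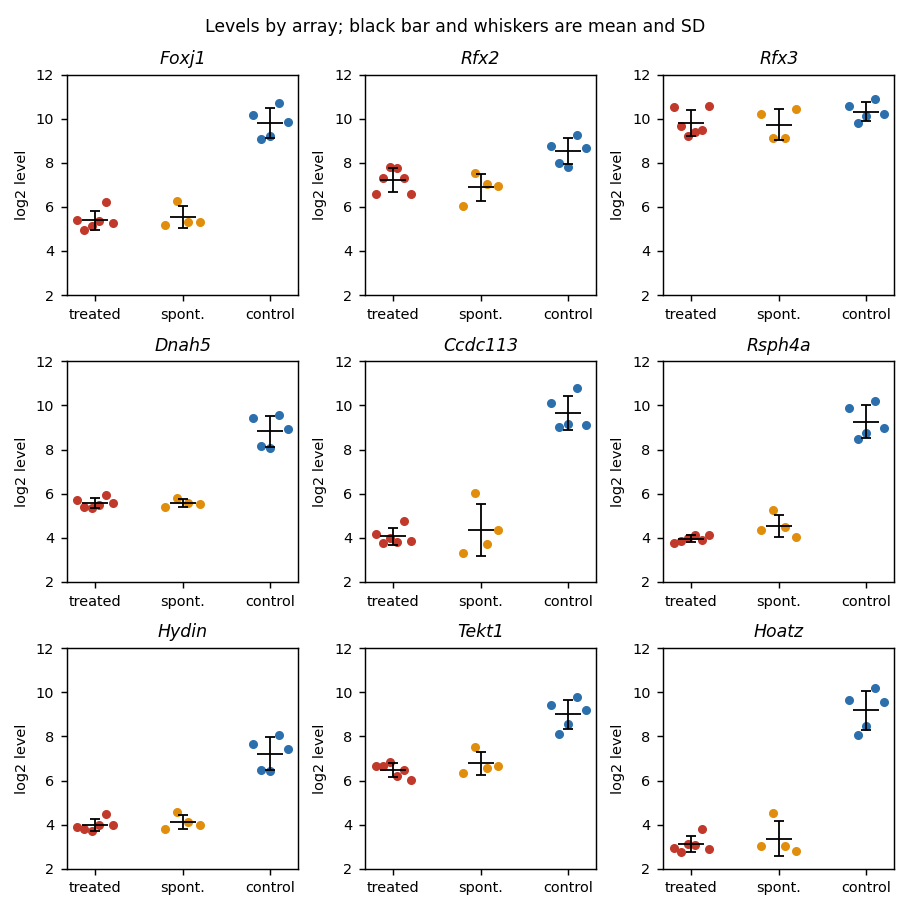
Log2 levels of 9 genes on each array (points), by group, with the mean and SD in black. Foxj1 lies between 4.94 and 6.26 in tumors and between 9.09 and 10.69 in control lung, while Rfx3 overlaps across groups.

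Of the 5 outer dynein arm genes, 5 fell in treated and 4 in spontaneous tumors. Dnah5, the heavy chain most often mutated in human primary ciliary dyskinesia, read 5.34, 5.53 and 5.93 (lowest, median and highest) in treated tumors. It read 5.39, 5.83, 5.59 and 5.53 in spontaneous tumors, against 9.41, 8.17, 8.06, 9.57 and 8.95 in controls. Tumor levels spread over less than 1 log2 unit and none came within 2 units of a control. Its fall was -3.26 ± 0.24 in treated tumors and -3.25 ± 0.27 in spontaneous tumors (limma adjusted p = 1.5e-07 and 7.6e-07). Dnah9, the heavy chain paired with Dnah5 in the distal cilium, had log2 fold changes of -2.27 in treated and -1.86 in spontaneous tumors. Those of Dnai1, an intermediate chain of the outer arm that the annotation lists as Dnaic1, were -2.93 and -2.68.

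Dnah11, the heavy chain of the proximal outer arm, had the smallest fold change of the 3 heavy chains. It ran from 8.10 to 9.11 in treated tumors. Spontaneous tumors read 9.52, 8.27, 8.39 and 8.58, against 9.81, 9.08, 9.22, 10.27 and 9.38 in controls. Spontaneous tumor 1 thus lay inside the control range. The fall was -0.99 ± 0.25 in treated and -0.86 ± 0.28 in spontaneous tumors (limma adjusted p = 0.0063 and 0.029).

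Dnai2, the other intermediate chain, annotated as Dnaic2, depended on the probe set. The one with the highest mean changed by -0.36 ± 0.13 in treated tumors (limma adjusted p = 0.036) and by -0.15 ± 0.14 in spontaneous tumors (adjusted p = 0.43). On its other probe set, it read 1.84, 2.14 and 2.32 (lowest, median and highest) in treated tumors, and 2.27, 2.80, 2.35 and 2.21 in spontaneous tumors, against 6.39, 5.26, 5.09, 6.79 and 5.89 in controls. Tumor and control levels on that probe set were separated by more than 2 units. On the log2 scale the changes there were -3.74 ± 0.25 and -3.47 ± 0.28 (adjusted p = 5.6e-08 and 5.2e-07 over 34945 probe sets).

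All 6 measured genes of the inner dynein arms and their tether fell in both tumor groups, without overlap with control lung. Dnah12, a single-headed inner arm heavy chain, read 2.95, 3.33 and 3.73 (lowest, median and highest) in treated tumors. Spontaneous tumors read 3.17, 4.27, 3.43 and 3.38, against 7.54, 6.96, 6.49, 8.26 and 7.59 in controls. Every tumor was more than 2 units under every control. Its log2 fold changes were -4.01 ± 0.28 and -3.81 ± 0.31 (limma adjusted p = 7.5e-08 and 5.8e-07). The log2 fold changes of Dnah6 were -3.84 in treated and -3.81 in spontaneous tumors, and those of Cfap43, part of the tether of the inner arms, -3.88 and -3.79. Dnali1, a light intermediate chain of the inner arms, stood at -2.49 and -2.56. Dnah1, at -2.10 and -2.29, and Dnah2, at -1.10 and -1.32, had the smallest falls of these 6 genes.

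Of the 2 genes for dynein arm assembly, which act in the cytoplasm before the arms enter the cilium, Zmynd10 fell, with log2 fold changes of -3.15 ± 0.35 and -3.0 ± 0.39 (limma adjusted p = 7.0e-06 and 4.2e-05). Dnaaf1 had 2 probe sets that disagreed. The one with the higher mean ran from 8.10 to 8.62 in treated tumors, from 7.81 to 8.56 in spontaneous tumors and from 7.97 to 8.43 in control lung. The other read 4.73, 5.23 and 5.50 (lowest, median and highest) in treated tumors, and 5.59, 5.66, 5.04 and 5.07 in spontaneous tumors, against 8.46, 6.67, 7.77, 8.95 and 8.45 in controls. On the second probe set all tumors lay below all controls, with log2 fold changes of -2.87 ± 0.31 and -2.72 ± 0.35 (adjusted p = 5.1e-06 and 3.3e-05). Whether Dnaaf1 counts among the genes that fell thus rests on the choice of probe set.

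All 6 genes of the molecular ruler, the nexin link and their neighbours fell in both groups without overlap. Ccdc113 read 3.77, 3.91 and 4.78 (lowest, median and highest) in treated tumors, and 3.29, 6.02, 3.72 and 4.37 in spontaneous tumors, against 10.13, 9.01, 9.17, 10.78 and 9.13 in controls. Spontaneous tumor 2 was well above the other spontaneous tumors and still below every control. The fall was 47.9-fold in treated and 39.2-fold in spontaneous tumors (limma adjusted p = 2.0e-07 and 1.5e-06). Ccdc153, a subunit of the nexin-dynein regulatory complex whose half-site is printed above, read 5.93, 6.03 and 7.63 in treated tumors. Spontaneous tumors read 6.06, 8.22, 6.04 and 6.04, against 12.07, 11.14, 11.34, 12.45 and 11.85 in controls. Apart from treated tumor 5 and spontaneous tumor 2, the tumors lay close together. Its log2 fold changes were -5.46 ± 0.41 and -5.18 ± 0.46 (adjusted p = 1.7e-07 and 1.3e-06).

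In the same group, Ccdc39 and Ccdc40, which form the ruler that sets the spacing of the arms, differed in size. Ccdc40 had log2 fold changes of -3.28 in treated and -3.80 in spontaneous tumors, and Ccdc39 of -1.68 and -1.74. The 2 other probe sets of Ccdc39 were called lower too, with -1.50 and -2.05 in treated and -1.67 and -2.18 in spontaneous tumors. Drc1, a base subunit of the nexin link, stood at -3.09 and -3.05, and Iqcg, another of its subunits, at -2.96 and -2.85.

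The 4 radial spoke genes all fell in both groups without overlap. Rsph4a, a spoke head protein, read 3.74, 3.96 and 4.12 (lowest, median and highest) in treated tumors, and 4.36, 5.26, 4.47 and 4.04 in spontaneous tumors, against 9.90, 8.48, 8.77, 10.19 and 8.99 in controls. The 6 treated tumors lay close together, and all tumors lay far below the controls. The fall was 39.6-fold in treated and 26.5-fold in spontaneous tumors (limma adjusted p = 1.1e-08 and 1.2e-07). Rsph1, also of the spoke head, had log2 fold changes of -4.07 and -3.93, and Lrrc23, a protein of the third spoke, of -3.93 and -3.70. Rsph9, another spoke head protein, had the smallest falls of the 4, at -1.11 and -1.21.

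Of the central pair apparatus, Hydin, a giant protein of a central pair projection, read 3.72, 3.92 and 4.51 (lowest, median and highest) in treated tumors. It read 3.82, 4.58, 4.14 and 3.97 in spontaneous tumors, against 7.68, 6.50, 6.43, 8.08 and 7.44 in controls. The highest tumor was well below the lowest control. The log2 fold changes of Hydin were -3.25 ± 0.27 and -3.10 ± 0.30, and those of Spag17, needed for the central pair, -3.28 ± 0.37 and -3.86 ± 0.41 (limma adjusted p at most 7.6e-06). Spag16 had 4 probe sets. The one with the highest mean had log2 fold changes of -0.66 and -0.70 (limma adjusted p = 0.023 and 0.034), and spontaneous tumor 2, at 5.97, lay inside the control range of 5.77 to 6.60. Another had -3.33 in each tumor group, with levels of 2.33 to 3.23 in treated and 2.44 to 3.04 in spontaneous tumors, against 5.32 to 7.06 in control lung. The remaining 2 were not called. The second probe set of Hydin, whose control levels lay between 3.80 and 4.36, was not called either.

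Of 9 genes for proteins bound inside the doublet microtubules, 8 fell in both groups. Tekt1, a tektin filament protein, read 6.04, 6.56 and 6.86 (lowest, median and highest) in treated tumors, and 6.33, 7.53, 6.58 and 6.66 in spontaneous tumors, against 9.41, 8.11, 8.55, 9.77 and 9.18 in controls. Spontaneous tumor 2 came within 1 unit of the lowest control. Tumors differed from control by -2.52 ± 0.28 and -2.23 ± 0.31 (limma adjusted p = 6.8e-06 and 7.7e-05). Those of the other tektins were -2.45 and -2.33 for Tekt2, and -2.30 and -2.23 for Tekt4. Pifo stood at -3.87 and -3.20, and Cfap126 at -3.51 and -3.61. Cfap53 stood at -2.82 and -2.76, and Mns1, a coiled-coil protein needed for motile cilia, at -2.24 and -2.72.

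Enkur, which binds inside the doublets and is known from left-right patterning, had log2 fold changes of -2.81 ± 0.37 in treated and -3.53 ± 0.41 in spontaneous tumors (limma adjusted p = 3.1e-05 and 1.4e-05). In treated tumors it read 5.64, 5.78 and 7.27 (lowest, median and highest). In this gene treated tumor 4, not treated tumor 5, was the highest.

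Cfap52, a luminal protein of the doublets, was the exception of this group. It read 8.25, 8.89 and 10.70 (lowest, median and highest) in treated tumors, and 8.33, 7.65, 8.23 and 8.31 in spontaneous tumors, against 9.60, 8.29, 8.78, 9.86 and 9.24 in controls. Treated tumor 2, at 10.70, exceeded every control, and the treated tumors spread over more than 2 log2 units. The log2 fold changes were -0.01 ± 0.38 in treated and -1.02 ± 0.42 in spontaneous tumors (limma adjusted p = 0.99 and 0.076). On its second probe set the treated tumors ran from 5.60 to 8.61, the spontaneous tumors from 5.69 to 6.15 and the controls from 6.16 to 7.25, and neither comparison was called.

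All 10 further cilium-associated genes fell in both groups without overlap, among them the largest falls of the 48. Fam183b read 3.63, 4.08 and 4.89 (lowest, median and highest) in treated tumors, and 3.55, 6.08, 4.0 and 4.35 in spontaneous tumors, against 11.03, 9.71, 9.84, 11.15 and 10.15 in controls. The nearest tumor, spontaneous 2, was more than 3 units under the lowest control. The fall was 75.0-fold in treated and 58.9-fold in spontaneous tumors (limma adjusted p = 4.0e-08 and 3.3e-07). Hoatz, a cilia- and flagella-associated protein, read 2.78, 3.01 and 3.79 in treated tumors. Spontaneous tumors read 3.04, 4.55, 3.03 and 2.81, against 9.67, 8.09, 8.46, 10.19 and 9.56 in controls. Its fall was 68.1-fold and 57.2-fold.

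Tmem212, a membrane protein used as a marker of ciliated cells, read 4.34, 4.51 and 6.72 (lowest, median and highest) in treated tumors. Spontaneous tumors read 4.73, 6.30, 4.39 and 4.47, against 11.20, 10.01, 10.08, 11.41 and 10.41 in controls. Treated tumor 5 and spontaneous tumor 2 again stood above the rest of their groups. Its changes on the log2 scale were -5.59 ± 0.47 and -5.65 ± 0.52 (limma adjusted p = 4.0e-07 and 1.7e-06). Stmnd1 stood at -5.18 in treated and -4.87 in spontaneous tumors, and Ak7, an adenylate kinase whose loss impairs ciliary beating in mice, at -4.86 and -4.53. Dynlrb2, a dynein light chain of the roadblock family, stood at -4.36 and -4.07. Cfap65 had values of -4.13 and -3.97, Mlf1 of -3.93 and -3.48, and Tppp3, a tubulin-binding protein found in ciliated cells, of -3.84 and -3.19. Ak8, another adenylate kinase, had the smallest falls of the 10, at -1.29 and -1.20.

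**Figure D3:**
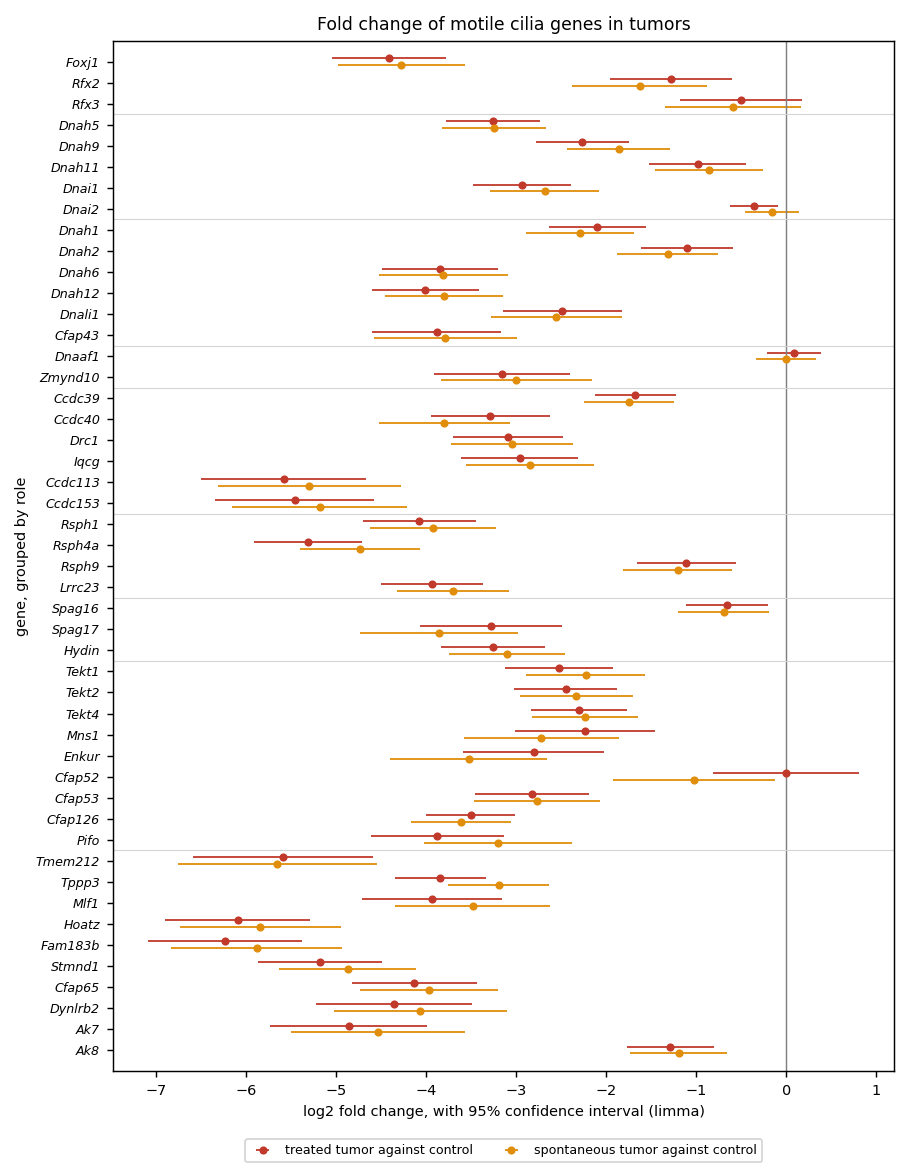
Log2 fold change against control lung for the 48 genes (points), with 95% confidence intervals from limma, for treated tumors (red) and spontaneous tumors (orange). The 2 estimates lie close together for most genes, and the intervals of Rfx3 and Dnaaf1 include 0 in both.

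Other probe sets of the same genes give readings that did not enter the counts above. There were 21 such probe sets for 15 genes, and 12 were called lower in treated and 12 in spontaneous tumors, with 0 called higher. Of all 34945 single-gene probe sets, 14.8% were called lower and 22.8% higher in treated tumors, and 12.7% lower and 18.8% higher in spontaneous tumors. For Dnali1 the second probe set gave -4.45 ± 0.33 and -3.92 ± 0.36, and for Dnai1 -3.78 ± 0.26 and -3.72 ± 0.29. For these 2 genes, as for Dnai2, Dnaaf1, Spag16, Ccdc39 and Rfx3, the probe set with the highest mean showed a smaller difference than another one. It showed the largest difference for Rfx2, Dnah1, Dnah2, Dnah9, Cfap43, Hydin and Spag17. The second probe set of Spag17 gave -0.53 in treated and -0.72 in spontaneous tumors, and that of Dnah9 -0.92 and -0.91.

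**Figure D4:**
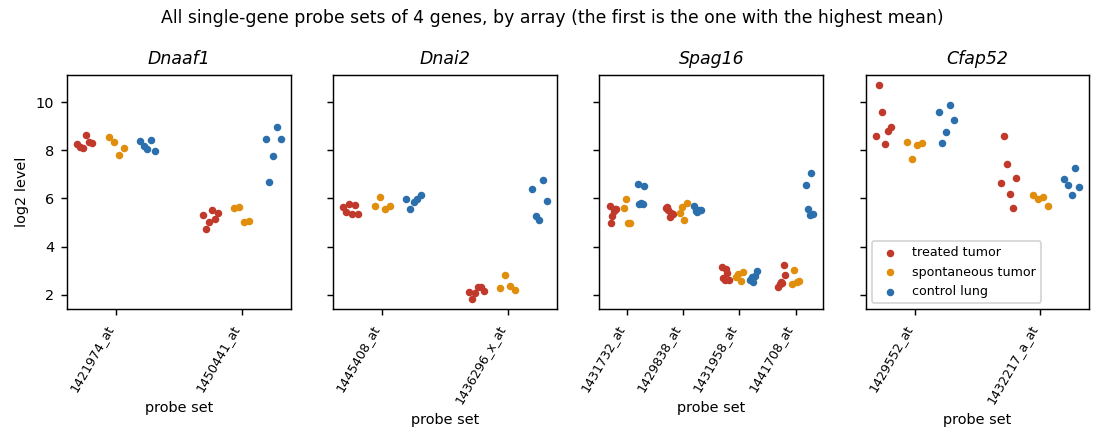
Log2 levels on each array (points) for every single-gene probe set of Dnaaf1, Dnai2, Spag16 and Cfap52, with the probe set of highest mean first and the groups in the order treated, spontaneous and control. One further probe set each of Dnaaf1, Dnai2 and Spag16 separates both tumor groups from control lung, whereas neither of Cfap52 does. On the second of Cfap52 the spontaneous tumors lie just below the controls and the treated tumors overlap them.

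Treated and spontaneous tumors were compared to ask whether exposure left a different mark on these genes. By limma, 0 of 48 differed at adjusted p under 0.05, where 10 of 18193 genes (0.0550%) did, and 2 of the 48, Cfap52 and Tppp3, had a 95% interval that excluded 0, where 8.64% of all genes did. The median log2 fold change of the 48 was -0.12, against -0.02 over all genes, and 47 of the 48 estimates were under 1 log2 unit in size. The 95% intervals stayed within 1 log2 unit of 0 for 30 of the 48, so larger differences are not shown to be absent for the others.

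For Foxj1 the treated minus spontaneous difference was -0.14, with a 95% interval of -0.82 to 0.53. Cfap52 had the largest difference at 1.01 (0.15 to 1.88), followed by Enkur at 0.72 (-0.12 to 1.56), Pifo at -0.68 (-1.47 to 0.11) and Tppp3 at -0.65 (-1.19 to -0.11). For Tppp3, treated tumors read 7.36 to 8.20 and spontaneous tumors 7.98, 8.97, 8.96 and 7.83. The groups overlapped for all 48 genes, where 1.63% of all genes did not overlap, and the smallest adjusted p among them was 0.482.

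Within each group the genes followed particular arrays. The mean log2 level of the 48 genes was 6.47 in treated tumor 5 and 5.87 to 6.01 in the other 5 treated tumors. It was 6.69 in spontaneous tumor 2 and 5.77 to 5.96 in the other 3 spontaneous tumors. In control lung it was 9.50, 8.43, 8.65, 9.90 and 9.09 in controls 1, 2, 3, 4 and 6. No tumor mean came within 1.5 units of a control mean.

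Treated tumor 5 was the highest of its group for 28 of 48 genes, against 21.4% of all genes tested. Spontaneous tumor 2 was the highest of its group for 40 of 48, against 39.1% of all genes. Control 4 was the highest control for 46 of 48 genes, against 20.8% of all genes, and control 2 the lowest for 36, against 21.8%. The higher level of single arrays was thus spread over most of the 48 genes and not carried by a few.

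Markers of club cells, the secretory cells that share the bronchiolar lining with ciliated cells, moved with these arrays. Of 10 markers, 9 fell in treated and 6 in spontaneous tumors, where 15% and 12.9% of all genes fell. Their mean log2 level was 9.82 in treated tumor 5 and 7.10 to 7.99 in the other treated tumors. It was 10.18 in spontaneous tumor 2, and 7.74, 9.32 and 9.18 in spontaneous tumors 1, 3 and 4, against 12.15 to 12.57 in control lung. Gabrp, a GABA receptor subunit on that list, read 4.24, 5.58 and 7.90 (lowest, median and highest) in treated tumors, and 5.14, 7.83, 5.33 and 7.07 in spontaneous tumors, against 12.44, 11.72, 11.83, 12.69 and 12.27 in controls. Spontaneous tumors 3 and 4 had club cell means well above spontaneous tumor 1 but motile cilia means of 5.94 and 5.96, close to its 5.77. The part of airway content in these differences was not tested.

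**Figure D5:**
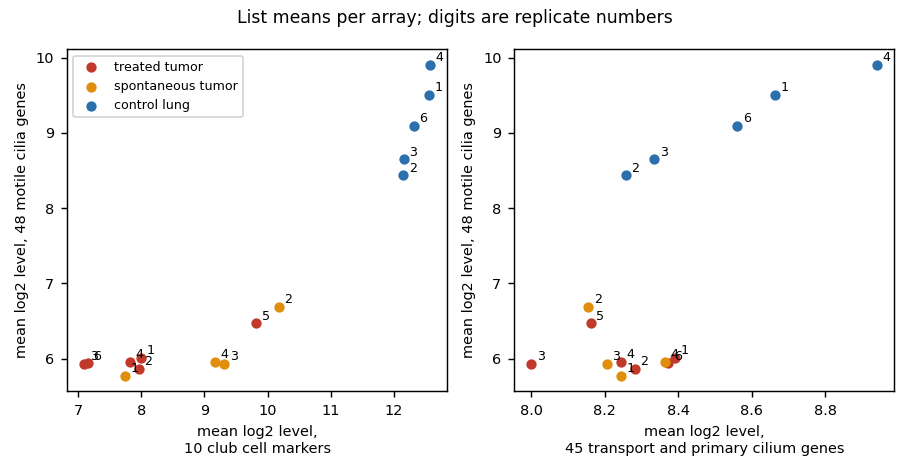
Mean log2 level of the 48 motile cilia genes on each array (vertical) against that of 10 club cell markers (left) and of 45 genes for intraflagellar transport and the primary cilium (right), with replicate numbers beside the points. Treated tumor 5 and spontaneous tumor 2 are the highest tumors on the vertical axis and have the highest club cell means among tumors.

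Markers of other lung cell types were read as well. Of all genes tested, 15% fell and 23.8% rose in treated tumors, and 12.9% fell and 20.1% rose in spontaneous tumors. Of 10 endothelial markers 10 fell in treated and 8 in spontaneous tumors, with list means of 8.41 to 9.56 and 8.60 to 9.57 against 11 to 11.56 in control lung. All 8 smooth muscle markers fell in both, with list means of 6.97 to 7.80 in treated and 7.11 to 7.78 in spontaneous tumors, against 8.95 to 10.40 in control lung. Smooth muscle means of controls 1, 2, 3, 4 and 6 were 10.14, 8.95, 9.80, 10.40 and 9.94, so the lowest and highest control were those of the motile cilia genes. Of 10 fibroblast markers 5 fell in each tumor group and 2 rose in treated tumors, of 8 alveolar type 1 markers 5 and 6 fell, and of 6 mesothelial markers 2 fell in each. Of 11 alveolar type 2 markers, 8 rose and 0 fell in each tumor group, and 5 and 3 of 8 pan-epithelial markers rose. Of 8 macrophage markers 2 rose in each group and 1 fell in treated tumors, and of 6 neuroendocrine markers 1 fell in each. Rises of fibroblast markers in treated tumors, rises of macrophage markers and falls of neuroendocrine markers lay near the shares of all genes. Of 8 basal cell markers 0 passed the test in either direction in either comparison by limma, with 0 at an unadjusted p under 0.05 in treated and 1 in spontaneous tumors. Their part in the motile cilia result was not tested.

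A further 79 genes of motile cilia were measured, of 97 on a second list. Of them 63 fell and 1 rose in treated tumors, where 15% of all genes fell and 23.8% rose. In spontaneous tumors 59 fell and 0 rose, where 12.9% of all genes fell and 20.1% rose. The median log2 fold changes of these 79 were -1.37 and -1.33, against 0.09 and 0.12 over all genes. Fam216b changed by -5.32 ± 0.33 in treated and -5.00 ± 0.37 in spontaneous tumors, and Spata18 by -4.52 ± 0.27 and -4.09 ± 0.30. Myb, a transcription factor that acts early in multiciliated cells, changed by -4.41 ± 0.25 and -4.13 ± 0.28, and Ttc29, a ciliary protein needed for sperm flagella, by -3.29 ± 0.22 and -3.19 ± 0.24 (limma adjusted p at most 3.6e-07 for these 4). The gene that rose was Spag6, at 1.25 ± 0.33 (adjusted p = 0.0079), named here after its value was seen. Its level ran from 2.35 to 4.80 in treated tumors and from 2.20 to 3.08 in control lung. These groups overlapped, and such levels may lie at background. Spag6 has a near-identical copy, so its probe set may read both.

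Genes for intraflagellar transport, which every cilium needs, and for the primary cilium, the single sensory cilium of most cells, were read as well. Of 45 measured genes 17 fell and 3 rose in treated tumors, where 15% of all genes fell and 23.8% rose. In spontaneous tumors 12 fell and 1 rose, where 12.9% of all genes fell and 20.1% rose. Their median log2 fold changes were -0.27 and -0.26, against 0.09 and 0.12 over all genes. Traf3ip1, a transport complex subunit, had the smallest p in treated tumors, at -2.16 ± 0.21 and -1.95 ± 0.24 (limma adjusted p = 2.0e-06 and 2.1e-05). The log2 fold changes of Ift172, Ift74 and Ift43, further subunits of the transport complexes, were -0.96, -1.01 and -1.0 in treated tumors and -0.78, -0.96 and -0.87 in spontaneous tumors. Those that rose, Ift52, Iqcb1 and Inpp5e in treated and Ift20 in spontaneous tumors, did so by 0.30, 0.70, 0.34 and 1.02 and were named after their values were seen. In control lung the means of these 45 genes in controls 1, 2, 3, 4 and 6 were 8.66, 8.26, 8.33, 8.94 and 8.56, in the same order as those of the 48 motile cilia genes. Tumor means of the 45 genes ran from 8.0 to 8.39 in treated and from 8.15 to 8.36 in spontaneous tumors.

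The RFX half-site was thus in 48.8% of windows of motile cilia genes, whose median log2 fold changes were -3.20 and -3.15, and in 47.5% of windows of transport and primary cilium genes, with -0.27 and -0.26. Among the 41 motile cilia genes with a window, the median log2 fold change was -3.03 in treated and -3.02 in spontaneous tumors for the 20 with a half-site, and -3.26 and -3.20 for the 21 without one. Of the 20, 19 fell in treated and 18 in spontaneous tumors, and of the 21, 20 and 20.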

How the data were processed

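Expression was measured in lung tissue on Affymetrix mouse arrays, 1 array per sample. The deposited values are log2 levels that the authors made with RMA, per the submitters' processing notes, which name no version. RMA corrects background, normalizes arrays together and summarizes probes per probe set, which can compress low levels. The number of arrays limits the precision.

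Of 45101 probe sets, 34945 carried 1 gene symbol, 932 several, 9160 none and 64 were controls. Symbols were updated by gene ID through the RefSeq table of GRCm38.p6 (34741 matched). Per gene, the probe set with the highest mean over the 15 arrays was tested. Levels of different genes were not compared.

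Groups came from the sample titles. Limma 3.58.1 (R 4.3.3) was fitted to the 15 arrays with 1 mean per group, with Benjamini-Hochberg adjustment over all 18193 genes. The genes and lists were chosen with earlier results of these data known. Any of the 48 genes could be named, and of each other list the 4 with the smallest p in treated tumors. Alternatives were the arrays used, array weights, normalization, a filter on low levels, the mean of probe sets, the variance model, a fold threshold, covariates, a replicate block and each array left out.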

Additional observations from a re-analysis of the deposited data

Results flagged for a closer look

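Among 144 sets of values (48 genes in 3 groups), 12 held a sample far from the others of its group, judged by the gap to its nearest neighbour divided by the group's range. Chance gives about 5% of such sets, and genes that follow the same arrays are not independent. Treated tumor 5 was the sample far above its group for Foxj1 (0.639), Ccdc153 (0.793), Hydin (0.663), Hoatz (0.644), Stmnd1 (0.703) and Ak7 (0.642). Spontaneous tumor 2 was far above its group for Foxj1 (0.877), Cfap43 (0.870), Zmynd10 (0.866), Ccdc153 (0.989) and Hoatz (0.868), and far below it for Cfap52 (0.858). The other 13 arrays had 0 such values among these genes.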

How the results depend on the processing

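With replicate number as a block, 44 genes fell in treated and 43 in spontaneous tumors and 0 differed between them, with Dnai2 lost in treated and Spag16 in spontaneous tumors. Deviations of same-numbered arrays from their group means had correlations of -0.15 to 0.30, with 2 of 13 over 0.1. The labels do not say whether the numbers mark pairs, and these correlations cannot settle it. Leaving out 1 array at a time gave 43 to 45 genes in treated and 42 to 45 in spontaneous tumors, 0 to 0 between them, and medians of -3.41 to -2.94, -3.30 to -2.94 and -0.23 to 0.093. Of all genes, 13.5% to 15.4% fell in treated and 10.9% to 13.3% in spontaneous tumors in those fits. Over all 18 arrays 37 genes fell in each comparison, the spontaneous median was -2.42, and 1350 and 757 of all genes were called, against 7065 and 6012 on 15 arrays. With the mean of Y-linked genes as a covariate, 42 fell in each, where 10.0% and 10.1% of all genes fell. With it, 4344 and 4388 of all genes were called in either direction. Between tumor groups, 0 to 37 of all genes were called over the alternatives. Only 16 of the 48 genes passed a filter at the median level, taken on means over the 15 arrays with control lung included. A gene can pass it through high control levels alone, so the filter gives no independent check of a fall. Of these 16 genes, 13 fell in each comparison, where 15.2% and 13.4% of the 9097 genes tested fell. In treated tumors Cfap52 turned to 0.26 over 18 arrays, 0.21 with array weights, 0.071 after median centring, 0.11 for the mean of probe sets, 0.25 with the Y-linked covariate, 0.035 with the actin covariate and 0.059 with the block, and lay between -0.32 (without treated tumor 2) and 0.17 with 1 array left out. Dnaaf1 turned to -0.018 after quantile normalization and -1.39 for the mean of probe sets in treated tumors. In spontaneous tumors it turned to 0.34 over 18 arrays, 0.071 after median centring and 0.0064 with the Y-linked covariate, and lay between -0.12 and 0.13 with 1 array left out. Between tumor groups Spag17 turned to -0.47 over 18 arrays. The cause was not tested. Of 2609 values of single genes under alternatives, 2533 kept direction and call. Over the 25 alternatives that tested all 48 genes, 37 fell in every one in treated and 35 in spontaneous tumors.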
